A study of Mus musculus with 18 samples.

Results

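The otic genes described here are Oc90, Otx1, Otx2, Hmx2, Hmx3, Pax2, Pax8, Gbx2 and Eya4, read in whole mouse embryos of an allelic series of Tbx1. They were chosen by name, and every probe set annotated with one of them as its only gene was kept. That gave 12 probe sets for 8 of the 9 genes, out of 45037 probe sets that stand for 18193 genes. Eya4 had 4 probe sets, Pax8 had 2 and the other genes had 1 each. Pax2 is not analysed here, since no probe set used carries its symbol.

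RNA of single whole embryos at embryonic day 9.5, of mixed 129SvEv and C57Bl/6 stock, was hybridised to 18 Affymetrix arrays. Wild-type embryos (WT, Tbx1+/+) served as controls. The mutants were Tbx1Neo2/+, Tbx1Neo/+ and Tbx1+/-, with 1 wild-type allele, and Tbx1Neo2/Neo2, Tbx1Neo2/Neo, Tbx1Neo2/-, Tbx1Neo/Neo and Tbx1-/-, with 0. Each genotype had 2 embryos, labelled as biological replicates. The labels do not name litters. Neo and Neo2 are known as hypomorphic alleles of Tbx1 and the minus sign as a null allele.

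The otic vesicle is the epithelial sac that forms the inner ear. It buds from the otic placode next to the hindbrain, and Tbx1 is expressed in its wall, where the gene is known to oppose neurogenesis and to be needed for the vestibule and cochlea. Pax8 and Pax2 are early transcription factors of the placode, Gbx2, Otx1, Otx2, Hmx2 and Hmx3 are homeodomain factors that pattern the vesicle, Eya4 is a transcriptional coactivator and phosphatase, and Oc90 encodes the main matrix protein of the otoconia. Most of these genes are not confined to the ear. Otx1 and Otx2 mark the forebrain and midbrain, Gbx2 the anterior hindbrain, Pax8 the midbrain-hindbrain boundary and the nephric lineage, and Hmx2 and Hmx3 parts of the nervous system. The otic vesicle is a small part of the embryo, and in RNA of whole embryos a smaller number of cells cannot be told apart from less RNA per cell.

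Tbx1 itself was read at 1 probe set. Its log2 signal was 6.54 and 6.63 in the WT embryos, between 6.13 and 6.61 in the 6 embryos with 1 wild-type allele, and 6.62 in both embryos labelled Neo2/Neo2. It was 5.65 and 5.67 in Neo2/Neo, 5.61 and 5.81 in Neo2/-, 5.04 and 5.20 in Neo/Neo, and 4.98 and 5.16 in -/-. The arrays labelled Neo2/Neo2 therefore carried a Tbx1 signal as high as WT. Array medians lay between 5.73 and 5.94. Replicate 1 of +/- and replicate 1 of -/- stood apart: the median correlation with the other arrays was lowest for the former, 0.985 for the latter, and 0.991 to 0.995 for the rest. Xist set against Y-linked genes called 9 females and 9 males. The WT and -/- pairs were female, the Neo2/Neo2 and Neo/Neo pairs male, and every other pair mixed.

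Oc90 was highest in the WT embryos. Its probe set was dim, with a mean of 4.74 below every array median, and the values carry no detection call. Its signal was 5.32 and 5.21 in WT (mean 5.27 ± 0.08, SD, n = 2). Among the heterozygotes it was 4.66 and 4.54 in Neo2/+, 4.96 and 4.93 in Neo/+, and 5.32 and 4.66 in +/-. Without a wild-type allele it was 4.58 and 4.62 in Neo2/Neo2, 4.54 and 4.43 in Neo2/Neo, 4.74 and 4.71 in Neo2/-, 4.66 and 4.48 in Neo/Neo, and 4.50 and 4.52 in -/-. Thus 15 of the 16 mutant arrays lay below both WT arrays, a pattern that 2.09% of all probe sets showed. No other otic probe set had 15 arrays on 1 side of WT (2.6% of all probe sets had at least 15 above). The exception was replicate 1 of +/-, at the upper WT level, which is also the array that correlated least with the others.

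The order of the genotype means for Oc90 was WT, +/-, Neo/+, Neo2/-, Neo2/+, Neo2/Neo2, Neo/Neo, -/- and Neo2/Neo. Only the steps from WT to +/- (0.28) and from Neo/+ to Neo2/- (0.22) were larger than the spread within genotypes, an SD of 0.17. The other neighbours differed by less than that spread. The order did not repeat that of Tbx1: Neo2/+ and Neo2/Neo2, with Tbx1 near the WT level, had less Oc90 signal than Neo/+ and +/-. For +/- this rests mostly on replicate 1 (5.32), as replicate 2 (4.66) was level with the higher Neo2/+ embryo (4.66).

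**Figure D1:**
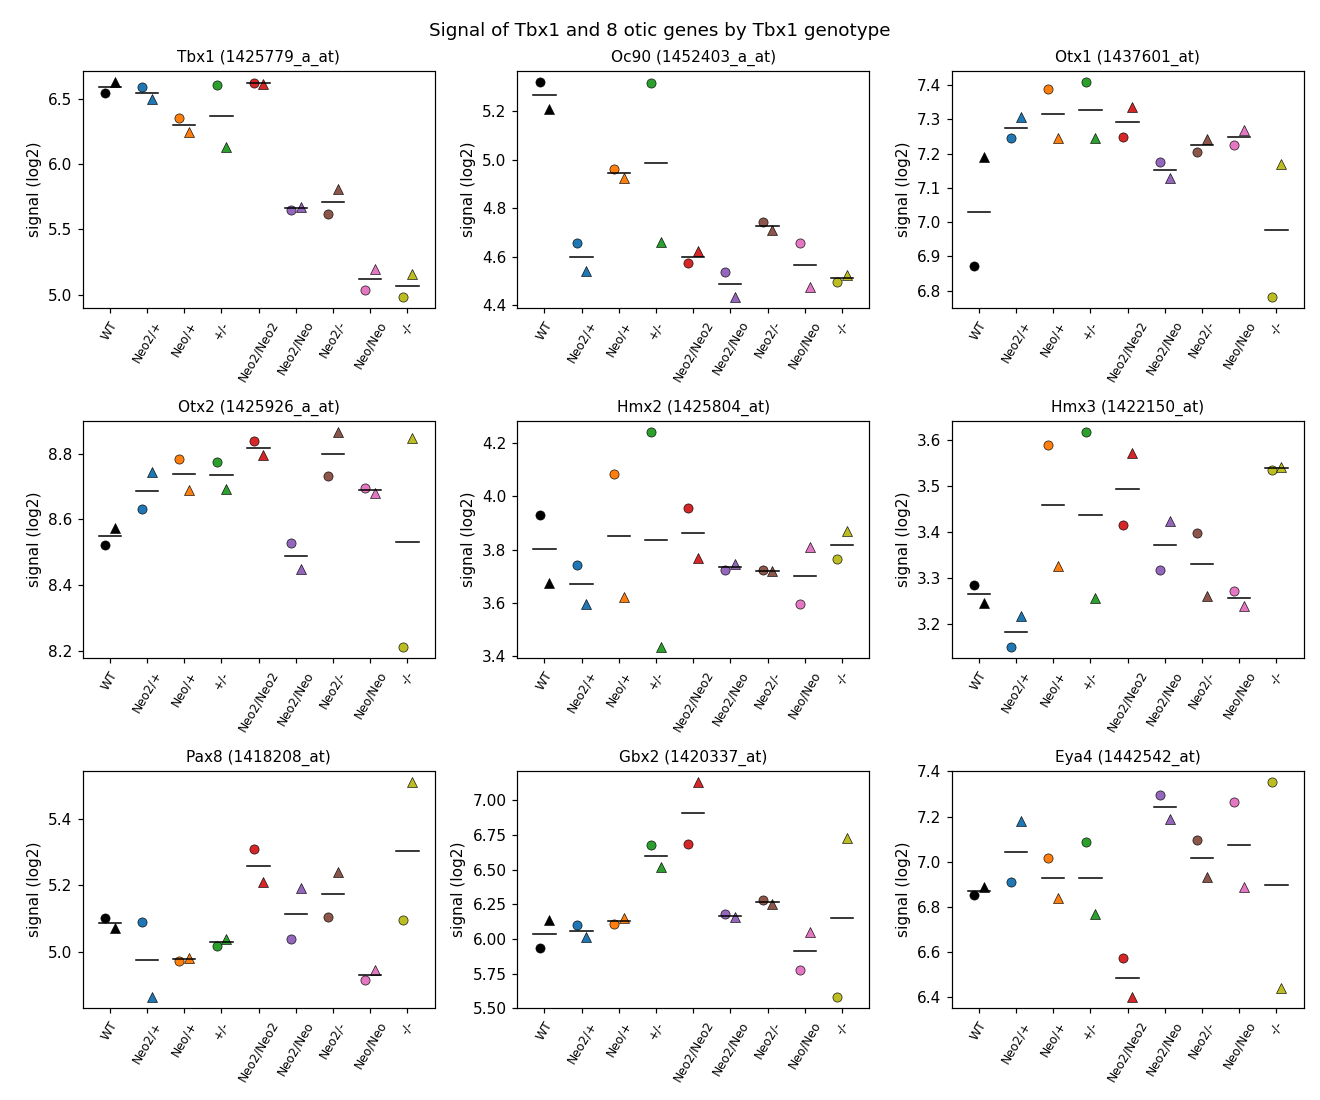
Log2 signal of Tbx1 and of the brightest probe set of each of 8 otic genes (y axes, each with its own range) in the 9 Tbx1 genotypes (x axes). Circles are replicate 1, triangles replicate 2, and bars the mean of 2 embryos. Oc90 is at 5.21 and 5.32 in WT and below both values on 15 of the 16 mutant arrays.

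Each genotype was compared with WT to follow the genes from mild to strong loss of Tbx1. The moderated test of limma was used on all 18 arrays, and a call meant a p under 0.05 after Benjamini-Hochberg adjustment across the 45037 probe sets. The 8 comparisons share the same WT pair. For Oc90 the difference was largest in Neo2/Neo (-0.78) and -/- (-0.76), then -0.70 in Neo/Neo, -0.67 in Neo2/Neo2 and in Neo2/+, and -0.54 in Neo2/-. It was -0.32 in Neo/+ and -0.28 in +/-. The +/- value was -0.61 without replicate 1 of +/- and 0.05 without replicate 2, so its sign rests on 1 embryo. In -/- the value corresponds to a 1.69-fold lower signal (SE 0.16, 95% confidence interval -1.10 to -0.41, limma's unadjusted p = 0.00043 and adjusted p = 0.107). The adjusted p-values of the other comparisons ran from 0.182 in Neo2/Neo2 to 0.782 in Neo2/-, so no genotype passed.

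Whether Oc90 passed depended on which arrays entered the fit. The +/- embryos differed by more than those of any other genotype (SD 0.47) and enter the shared error. With replicate 1 of +/- left out, limma called Oc90 in 4 comparisons with the same differences. The adjusted p was 0.0174 in -/-, 0.00999 in Neo/Neo, 0.0217 in Neo2/Neo and 0.0445 in Neo2/Neo2, where 0.12%, 0.111%, 0.0133% and 0.0266% of all probe sets were called. It was not called in Neo/+ or Neo2/-, where 0.0799% and 0.00444% of all were. Leaving out replicate 2 of +/- instead gave the same 4 calls by construction. Either removal leaves 1 +/- embryo, which adds nothing to the shared error, so this is not a second check. The F-test over genotypes called Oc90 with adjusted p-values of 0.0246 (0.422% of all called) and 0.000351 (10.6%) by limma. Without both arrays that stood apart the same 4 were called, with adjusted p-values of 0.0442, 0.00734, 0.0133 and 0.0172, against 0.144%, 0.302%, 0.0511% and 2.02% of all probe sets. Without WT replicate 1, in contrast, the adjusted p in -/- was 0.548. With both +/- arrays kept, the difference of Oc90 in -/- was -0.77 without replicate 2 of -/- and -0.74 without replicate 1. Each of these fits rests on 1 -/- embryo, and the former keeps only the array that stood apart. The WT level rests on at most 2 embryos.

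In the fit on all arrays, 0 of the 12 otic probe sets passed in any of the 8 comparisons. The share of all probe sets that passed was 0% in Neo2/+ and +/-, 0.00222% in each of Neo2/-, Neo2/Neo and Neo2/Neo2, 0.0311% in Neo/+ and -/-, and 0.0822% in Neo/Neo. At an unadjusted p under 0.05, limma had 2 of 12 in -/- (Oc90 and 1 probe set of Eya4), where 15.1% of all probe sets reached that level. It had 2 in Neo2/Neo2 (Oc90 and Gbx2, background 11.6%) and 1 in +/-, which was Otx1 (11.7%). Oc90 was the only one in Neo2/+, Neo2/Neo, Neo2/- and Neo/Neo (6.51%, 6.72%, 6.28% and 7.01%), and there was none (0) in Neo/+ (7.36%). These shares of the otic probe sets are close to the background. The median difference of the 12 probe sets lay between -0.05 in Neo/Neo and 0.13 in +/-, where the medians over all probe sets were -0.0021 and 0.04.

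Groups that did not overlap with WT were common among all probe sets, as pairs of embryos are compared. Of the 12 otic probe sets, 2 lay below WT and 4 above it in Neo2/+ (20.7% and 19.3% of all probe sets), 3 and 4 in Neo/+ (18.6% and 23.1%), and 1 and 3 in +/- (12.3% and 21.6%). The counts were 4 and 6 in Neo2/Neo2 (21.7% and 24.8%), 1 and 4 in Neo2/Neo (23.8% and 20.1%), and 2 and 5 in Neo2/- (20% and 17.7%). In Neo/Neo there were 3 and 3 (20.7% and 21%), and in -/- 3 and 1 (18.6% and 20.5%). Oc90 lay below WT in 7 of the 8 genotypes, all but +/-. Otx1 and Otx2 lay above it in 6, that is in all but Neo2/Neo and -/-. These counts do not add up as separate results, since every genotype is set against the same WT pair. The share of all probe sets that reach such counts was not computed.

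A moderated F-test over the 9 genotypes asked for any difference between them. Limma called 0 of the 12 otic probe sets, against 0.275% of all, and at an unadjusted p under 0.05 only Oc90, against 13.7% of all. The adjusted p of Oc90 was 0.167 by limma. Gbx2 was next, with an adjusted p of 0.375. With the 2 arrays that stood apart left out, the F-test called Oc90 (adjusted p = 0.0154) and Gbx2 (adjusted p = 0.029), where 2.77% of all probe sets passed. Hmx2 had the smallest F of the 12, 0.22 (adjusted p = 0.987).

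**Figure D2:**
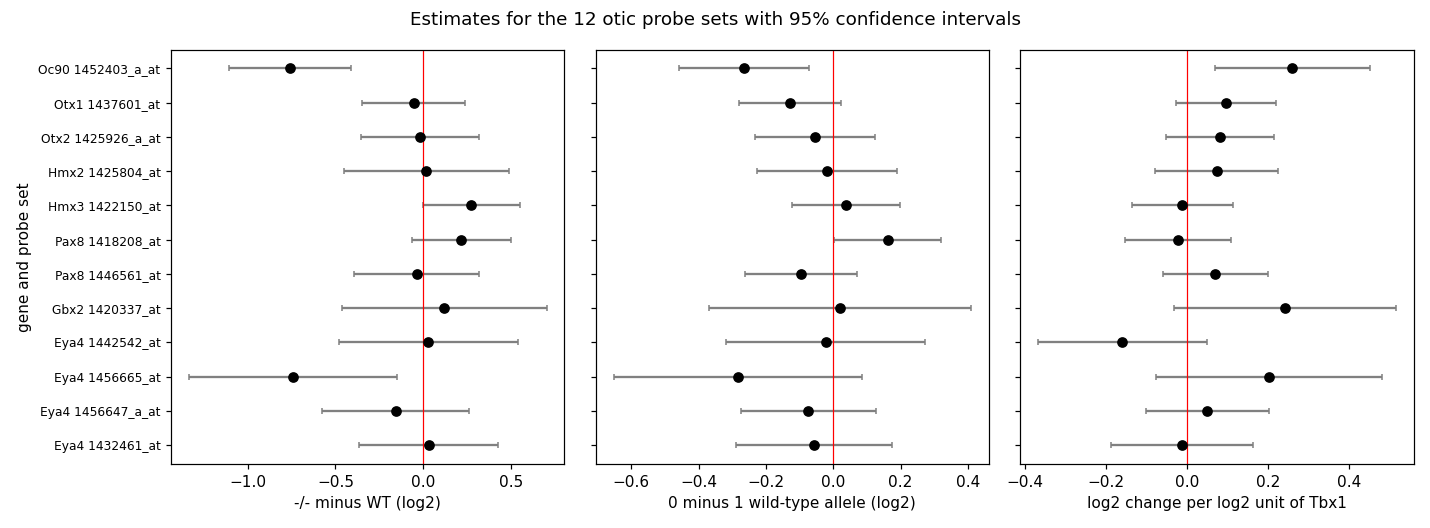
Estimates of limma (points) with 95% confidence intervals (bars) for the 12 otic probe sets (y axis): the difference of -/- from WT, the difference between embryos with 0 and 1 wild-type allele, and the slope on the Tbx1 signal, all on the log2 scale (x axes). The interval of Oc90 leaves out 0 in all 3 panels, with values of -0.76, -0.27 and 0.26, and no estimate passes after adjustment over all probe sets.

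The regression on the Tbx1 signal asked whether an otic gene follows Tbx1 over the 18 embryos. The slope is the change in log2 signal per log2 unit of Tbx1. Oc90 had the largest slope, 0.26 (SE 0.09, 95% confidence interval 0.07 to 0.45, unadjusted p = 0.0106), with an adjusted p of 0.553 by limma. Gbx2 had 0.24 (-0.03 to 0.51), and the brighter Eya4 probe sets had -0.16 (-0.37 to 0.05) and 0.20 (-0.08 to 0.48). The slopes were 0.10 (-0.03 to 0.22) for Otx1, 0.08 (-0.05 to 0.21) for Otx2 and 0.07 (-0.08 to 0.22) for Hmx2. For Hmx3 and the brighter Pax8 probe set they were -0.01 (-0.14 to 0.11) and -0.02 (-0.15 to 0.11). The highest upper bound among all 12 probe sets was 0.51, for Gbx2, below the slope of 1 that a change in parallel with Tbx1 would have. The bound describes signal in whole embryos, where most of these genes are also expressed outside the ear and several probe sets are dim. It cannot tell whether their RNA in the otic vesicle follows Tbx1.

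No otic probe set (0 of 12) was called, and 1 of 12 had an unadjusted p under 0.05. Over all probe sets the shares were 0% and 8.74%. The number of wild-type alleles and the Tbx1 signal overlap in this series. With that number in the same fit the Oc90 slope was 0.03 (SE 0.09), and the Gbx2 slope 0.54 (SE 0.14, adjusted p = 0.505). With the Neo2/Neo2 pair left out, in which Tbx1 was high and Oc90 low, the Oc90 slope was 0.34 (SE 0.09, adjusted p = 0.623) and the Gbx2 slope 0.11.

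**Figure D3:**
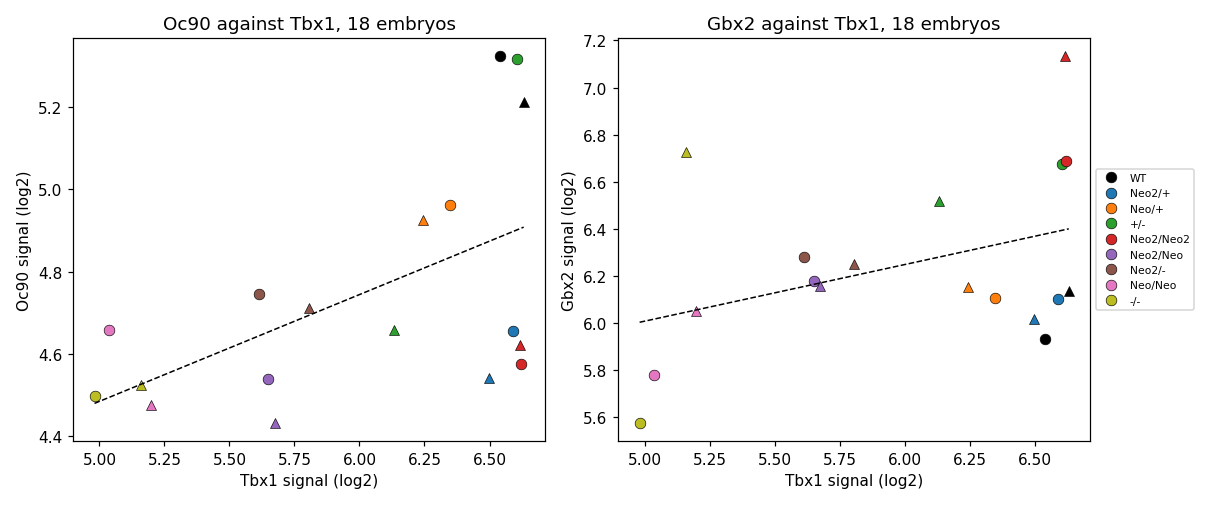
Log2 signal of Oc90 (left) and Gbx2 (right) against that of Tbx1 in the 18 embryos, coloured by genotype, with circles for replicate 1 and triangles for replicate 2. Dashed lines are limma's fits, with slopes of 0.26 and 0.24. The 4 arrays of Neo2/+ and Neo2/Neo2 carry high Tbx1 and Oc90 signals of 4.54 to 4.66.

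Embryos with 0 wild-type alleles (n = 10) were set against those with 1 (n = 6), the comparison with the most arrays. Oc90 differed by -0.27 (SE 0.09, 95% confidence interval -0.46 to -0.07, unadjusted p = 0.00966, adjusted p = 0.888). Leaving out replicate 1 of +/- brought it to -0.17. Pax8 differed by 0.16 at its brighter probe set (0.00 to 0.32, unadjusted p = 0.0458, adjusted p = 0.888), and by -0.10 at the dimmer one. Otx1 had -0.13 (-0.28 to 0.02), Otx2 -0.05 (-0.23 to 0.12), Hmx3 0.04 (-0.12 to 0.20) and Hmx2 -0.02 (-0.23 to 0.19). The largest difference of the 12 was that of the second brightest Eya4 probe set, -0.28 (-0.65 to 0.09), while its other probe sets had -0.02, -0.07 and -0.06. Gbx2 had 0.02 (-0.37 to 0.41). Limma called 0 of 12, and 2 of 12 had an unadjusted p under 0.05, with 0% and 4.53% over all probe sets.

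Gbx2 and Otx2 encode homeodomain factors that face each other across the midbrain-hindbrain boundary and are both used again in the otic vesicle. They were the otic genes that most followed the boundary genes over the embryos, so the sequence before 1 annotated start of each is shown. The RefSeq promoter table (GRCm38.p6) held 14 windows for 7 of the 9 genes, with no entry for Oc90 or Otx1. In the 250 bases before each start, the letters TAATTA, a core bound by many homeodomain factors, occurred in 2 windows, both of Otx2, and in 4.84% of all windows of that length. The letters TAATCC, bound by Otx factors, occurred in 1 Otx2 window (6.25% of all), and the T-box letters AGGTGTGA in 0 of the 14 (1.12% of all). Both strands were searched (TAATTA reads the same on both), matches lay apart from each other, and a match describes letters only. Capitals mark TAATTA, which lies 141 bases before the Otx2 start.
Otx2, chr14:48667645-48667894, minus strand: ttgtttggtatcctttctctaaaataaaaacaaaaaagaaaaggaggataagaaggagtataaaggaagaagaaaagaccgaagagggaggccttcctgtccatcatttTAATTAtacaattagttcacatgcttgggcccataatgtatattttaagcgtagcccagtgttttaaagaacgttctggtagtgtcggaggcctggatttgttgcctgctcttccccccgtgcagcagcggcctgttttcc
Gbx2, chr1:89931177-89931426, minus strand: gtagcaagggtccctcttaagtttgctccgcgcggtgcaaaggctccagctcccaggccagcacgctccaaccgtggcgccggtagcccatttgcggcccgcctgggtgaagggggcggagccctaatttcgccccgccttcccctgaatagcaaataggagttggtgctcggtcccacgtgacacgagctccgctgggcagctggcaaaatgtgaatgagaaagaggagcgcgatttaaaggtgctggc
The Otx2 window is 42% G and C with 6 CpG, and that of Gbx2 61.6% with 18 CpG.

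Gbx2 varied more between embryos than any other otic gene at its brightest probe set, over a range of 1.56. It was 5.93 and 6.13 in WT, 6.10 and 6.01 in Neo2/+, 6.11 and 6.15 in Neo/+, and 6.68 and 6.52 in +/-. In embryos without a wild-type allele it was 6.69 and 7.13 in Neo2/Neo2, 6.18 and 6.16 in Neo2/Neo, 6.28 and 6.25 in Neo2/-, 5.78 and 6.05 in Neo/Neo, and 5.58 and 6.73 in -/-. Both Neo2/Neo2 arrays lay above both WT arrays, as 24.8% of all probe sets did there, while the -/- pair held the lowest value of the series (replicate 1) and the second highest (replicate 2). In the order of the means, Neo2/Neo2 (6.91), +/- (6.60) and Neo2/- (6.27) were separated by more than the spread within genotypes (SD 0.30). The other neighbours were not.

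The difference of Gbx2 in Neo2/Neo2 was 0.88 (1.84-fold, SE 0.27, 95% confidence interval 0.30 to 1.46, unadjusted p = 0.00629, adjusted p = 0.259 by limma). The replicates of -/- differed by more than that. Without the 2 arrays that stood apart, limma called Gbx2 there (adjusted p = 0.0251), in a comparison that called 2.02% of all probe sets. Without replicate 1 of -/- alone the adjusted p was 0.0509. In -/- against WT the difference was 0.12 (-0.46 to 0.70), and it was -0.46 without replicate 2 of -/- and 0.69 without replicate 1.

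Otx2 and Otx1, the vertebrate orthodenticle factors of the anterior brain and sensory epithelia, varied less. Otx2 was 8.52 and 8.57 in WT, 8.84 and 8.80 in Neo2/Neo2, 8.53 and 8.45 in Neo2/Neo, and 8.21 and 8.85 in -/-. The other 10 arrays had 8.63 to 8.87. Otx1 was 6.87 and 7.19 in WT, 6.78 and 7.17 in -/-, and 7.13 to 7.41 on the other 14 arrays. For both genes replicate 1 of -/- was the lowest of all. The differences of -/- from WT were -0.02 for Otx2 (-0.35 to 0.32) and -0.05 for Otx1 (-0.35 to 0.24). Without the arrays that stood apart they were 0.30 and 0.14, and without replicate 2 of WT 0.0082 and 0.10, so their sign changed with single embryos of either genotype.

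Hmx2 and Hmx3 are adjacent genes that encode NKL-type homeodomain factors needed for the semicircular canals. Their probe sets were dim, with means of 3.78 and 3.37, and RMA values carry no detection call. Hmx3 was 3.29 and 3.25 in WT and 3.54 on both -/- arrays, which lay above WT as 20.5% of all probe sets did. The difference was 0.27 (95% confidence interval -0.00 to 0.55, unadjusted p = 0.0507, adjusted p = 0.332 by limma). Hmx3 was not ordered by Tbx1, since Neo/Neo had 3.27 and 3.24 with a Tbx1 signal near that of -/-. Hmx2 was 3.93 and 3.67 in WT and 3.77 and 3.87 in -/-, so these groups overlapped, and its extremes were both in +/-, at 4.24 and 3.43.

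Pax8, a paired-box factor of the otic placode, thyroid and kidney, had 5.10 and 5.07 in WT. It was 5.31 and 5.21 in Neo2/Neo2, 5.10 and 5.24 in Neo2/-, 4.91 and 4.94 in Neo/Neo, and 5.09 and 5.51 in -/-. Those of Neo2/Neo2 lay above both WT arrays and those of Neo/Neo below both, as 24.8% and 20.7% of all probe sets did. The differences were 0.17 (-0.11 to 0.45) in Neo2/Neo2, -0.16 in Neo/Neo and 0.22 (-0.06 to 0.49) in -/-. The -/- value was 0.42 without replicate 1 of -/- and 0.0066 without replicate 2. The dimmer Pax8 probe set had a mean of 3.28 and a correlation of 0.06 with the brighter one over the 18 arrays.

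Eya4, whose human counterpart is linked to hearing loss, was read at 4 probe sets that did not move alike. The brightest (1442542_at) was 6.85 and 6.89 in WT, 6.57 and 6.40 in Neo2/Neo2, 7.30 and 7.19 in Neo2/Neo, and 7.35 and 6.44 in -/-. The next (1456665_at) was 6.38 and 6.47 in WT, 6.15 and 6.08 in Neo2/Neo2, 6.62 and 6.69 in Neo2/Neo, and 5.14 and 6.22 in -/-. On both, Neo2/Neo2 lay below WT without overlap and Neo2/Neo above it, as 21.7% and 20.1% of all probe sets did. On replicate 1 of -/- they went opposite ways, the first at its highest and the second at its lowest value of the series.

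The Eya4 difference in -/- was 0.03 at the brightest probe set (-0.48 to 0.53). At the next it was -0.74 (-1.33 to -0.15, unadjusted p = 0.0177, adjusted p = 0.231 by limma). Without replicate 2 of -/- the latter was -1.28 and was called (adjusted p = 0.00388), in a fit that called 11.4% of all probe sets. The correlation between these 2 probe sets over embryos was 0.09 with all 18 arrays and 0.79 over the 16 left without the 2 that stood apart. The dimmer probe sets, 1456647_a_at and 1432461_at, had differences of -0.16 and 0.03 in -/-. The reading of Eya4 in -/- therefore depends on the probe set and on 1 embryo.

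**Figure D4:**
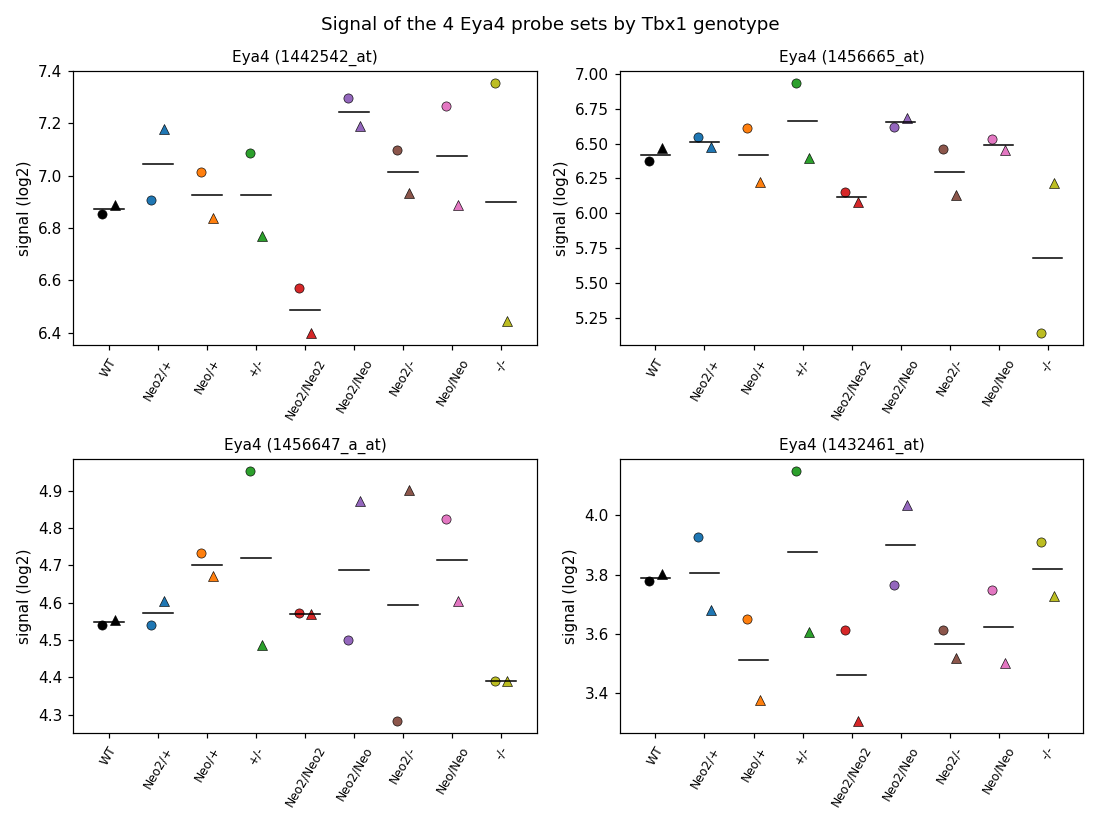
Log2 signal (y axes) of the 4 Eya4 probe sets in the 9 Tbx1 genotypes (x axes), with circles for replicate 1, triangles for replicate 2 and bars for the mean of 2 embryos. At 1456665_at replicate 1 of -/- is at 5.14, whereas at 1442542_at it is at 7.35.

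How the otic genes vary among themselves is described over the 18 embryos with Pearson's r. The values share arrays, and differences in array quality between embryos enter every r. At the brightest probe sets the closest pair was Otx1 and Otx2 (r = 0.78, and 0.58 without the 2 arrays that stood apart). Hmx2 and Hmx3 had 0.65 (0.56 without them) and Otx2 and Gbx2 0.64 (0.50). Gbx2 and Eya4 ran against each other (-0.76, and -0.81 without them), as did Pax8 and Eya4 (-0.61 and -0.65). For Oc90 r ran from -0.20 with Pax8 to 0.43 with Hmx2, and without the 2 arrays from -0.42 with Otx1 to 0.19 with Hmx2.

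Gbx2 and the brightest Eya4 probe set varied with transcripts of other tissues. The early neuron list holds 14 genes such as Tubb3, Dcx and Stmn2, and its score is their mean deviation from each gene's average. It was lowest in Neo2/Neo2 (-0.91 and -0.85) and -/- replicate 2 (-0.84), and highest in Neo2/Neo (0.86 and 0.91), with WT at 0.16 and 0.25. Its r over 18 arrays was -0.69 with Gbx2 and 0.88 with the brightest Eya4 probe set, and -0.71 and 0.92 without the 2 arrays that stood apart. At the other Eya4 probe sets, from brighter to dimmer, r was only 0.24, 0.10 and 0.49 (0.83, 0.21 and 0.61 without those arrays). With Oc90 it was -0.04 (0.03 without them). The midbrain-hindbrain boundary list (10 genes, among them En1, Wnt1 and Fgf8) had 0.82 with Otx2, 0.78 with Gbx2 and -0.08 with Oc90. Its score was 0.26 and 0.22 in Neo2/Neo2 and -0.23 and -0.08 in WT. Of the other lists correlated, some followed the same genes and some did not. The developmental timing list (5 genes, such as Lin28a and Hmga2) had an r of 0.86 with Otx2, 0.68 with Gbx2 and -0.76 with the brightest Eya4 probe set. The hindbrain list (6 measured genes) had 0.69, 0.75 and -0.77. At the next Eya4 probe set these lists had only 0.26 and -0.08 (-0.74 and -0.63 without the 2 arrays). The forebrain and midbrain list had 0.49, 0.26 and 0.08, and the nephric list 0.06, 0.02 and 0.35. With Oc90 the timing, hindbrain, forebrain and nephric lists had 0.10, -0.21, 0.02 and -0.14. The part of these tissues, or of embryo stage, in the values of Gbx2, Otx2 and Eya4 was not tested.

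**Figure D5:**
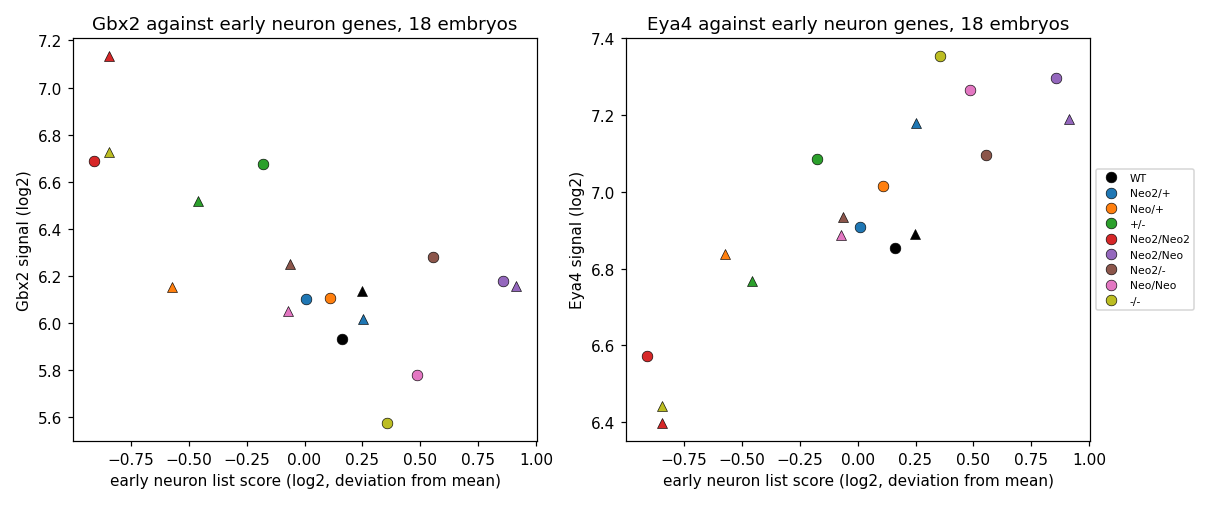
Log2 signal of Gbx2 (left) and of the brightest Eya4 probe set (right) against the score of 14 early neuron genes in the 18 embryos, coloured by genotype, with circles for replicate 1 and triangles for replicate 2. Gbx2 is highest, and Eya4 lowest, on the Neo2/Neo2 arrays and on -/- replicate 2, where the score is between -0.91 and -0.84.

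The genes whose pattern over the 18 arrays was most like that of an otic gene were taken by the highest r among 18193 genes. For Oc90 they were Proc (0.87), A630001G21Rik (0.84) and Gabrg1 (0.83). Otx2 was most like Tnfrsf19 (0.93), Lgi2 (0.93) and Wnt1 (0.92), and Otx1 most like Pgghg (0.92), Foxa1 (0.91) and Tnip1 (0.90). Gbx2 had Kank1 (0.92), Pknox2 (0.91) and Zfp280b (0.91), and Eya4 had St18 (0.95), Klhl28 (0.95) and Hpgd (0.95). Hmx2 had Glyctk (0.85), Grm8 (0.84) and Acod1 (0.82), Hmx3 had Cngb3 (0.81), Parpbp (0.80) and Cby2 (0.79), and Pax8 had Abi3 (0.82), Cdsn (0.80) and Ccdc33 (0.79). Over the 16 arrays left without those that stood apart, the values of Oc90 fell to between 0.76 and 0.82. Others moved both ways: Otx2 with Wnt1 fell to 0.84 and Hmx2 with Grm8 to 0.73, while Pax8 with Abi3 rose to 0.86 and Eya4 with Klhl28 to 0.96. Each r was picked as the highest among 18193 genes, so its size partly reflects that choice.

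Other genes of the otic placode and vesicle were read from a list of 40, of which 34 were measured. The list holds regulators such as Eya1, Six4, Sox9 and Gata3, the signals Fgf3 and Fgf10, and matrix genes such as Otog and Tecta. In each of the 8 comparisons with WT, in the comparison of 0 with 1 wild-type allele and in the regression on Tbx1, limma called 0 of the 34. At limma's unadjusted p under 0.05 there were 1 higher and 5 lower in -/- (15.1% of all probe sets). The median difference there was -0.14, against 0.02 over all genes. The mean deviation of the list was -0.22 on replicate 1 of -/-, which stood apart, and -0.08 on replicate 2. In Neo2/Neo there were 5 higher and 0 lower (6.72%), and in Neo2/Neo2 3 higher and 2 lower (11.6%). Neo/+, Neo2/- and Neo/Neo each had 2 higher and 0 lower (7.36%, 6.28% and 7.01%). Neo2/+ and +/- had 0 (6.51% and 11.7%). In the regression there were 3 with a positive and 2 with a negative slope (8.74% of all probe sets), and in the comparison of 0 with 1 wild-type allele 0 (4.53%). The 3 with the smallest p in the regression were Dlx5, a homeodomain factor of the dorsal vesicle (slope 0.26, SE 0.07), Sox10, a factor of the otic epithelium and neural crest (0.18, SE 0.07), and Otog, the gene of the matrix protein otogelin (0.22, SE 0.09). Their adjusted p-values were 0.553, 0.553 and 0.56, so none passed.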

How the data were processed

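The values the authors deposited are log2 signals per probe set. The submitters' processing notes name the tools affy and RMA. RMA adjusts background, equalises array distributions and summarises the probes of a set. Software versions were not given in the sources used here. Values were used as deposited, with 0 other columns. Gene names came from the platform annotation, which gives 1 symbol to 34945 of 45037 probe sets, several to 932 and none to 9160. Gene IDs of 34741 matched RefSeq (GRCm38.p6). A gene with several probe sets was read at the one with the highest mean, and its others are given too.

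Tests used limma 3.58.1 in R 4.3.3 (lmFit, eBayes, two-sided) over all probe sets: 9 genotype means (9 residual degrees of freedom, 3.63 prior), 3 means by wild-type alleles (15) and a slope on Tbx1 (16). SE and intervals are limma's moderated ones at 95%, and SD is over 2 embryos. The number of arrays limits precision. On simulated data with 45037 probe sets and independent noise, changes of 0.5, 1 and 2 were recovered at 26.9%, 79.1% and 89.4% in -/- against WT (7 false calls). For 0 against 1 wild-type allele they were 79.1%, 97% and 100% (13), and for the slope on Tbx1 91%, 100% and 100% (10). The simulated noise held only the spread within genotypes. In the allele and slope fits, differences between genotypes also enter the error, so these rates are likely above those in the real data. Tbx1 itself differed by -0.77 between 0 and 1 wild-type allele, with an adjusted p of 0.888 by limma.

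The members and lists were chosen with earlier results of these data known. All probe sets of the members are named, the other otic genes by call or by the 3 smallest p in the Tbx1 regression, and alike genes by the 3 highest r. Marker lists for forebrain, hindbrain, nephric duct, eye, endothelium, erythroid cells and developmental timing gave 0 calls in -/- against WT. Of all probe sets 0.0311% were called there, so 0 calls in short lists say little about these tissues. Embryo sex was called from Xist minus the mean of the measured Y-linked markers (Kdm5d, Uty and Eif2s3y), with a cut at 0. Alternatives were single arrays and the 2 apart arrays left out, a filter on dim probe sets (mean under 6), centring, quantile normalization, a trend, array weights, sex, the replicate block and other forms of the Tbx1 term.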

Additional observations from a re-analysis of the deposited data

Results flagged for a closer look

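Dixon's test at 95% was run on the embryos with 0 (n = 10) and 1 (n = 6) wild-type alleles for each of the 12 otic probe sets, 24 groups in all, of which 2 stood out. Chance alone gives about 1 in 20. Both were the lowest value among embryos without a wild-type allele and both came from replicate 1 of -/-, which stands apart from the other arrays. Otx1 had a signal of 6.78 there against 7.13 in the next embryo, and Eya4 at 1456665_at had 5.14 against 6.08.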

How the results depend on the processing

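Otic calls were summed over comparisons, so Oc90 counted as 4 where it was called in 4 of the 8 comparisons with WT. The fits without either +/- array are the same for the other genotypes by construction, so they count as 1 check. Their count stayed at 0 under every alternative run for 0 against 1 wild-type allele and for the regression on Tbx1. Against WT it was 0 on all arrays, 5 without the 2 arrays that stood apart, 2 with array weights, and 0 to 4 with single arrays left out (4 without either +/- array, 2 without -/- replicate 2). The share of all probe sets called also moved: in -/- against WT 11.4% without -/- replicate 2, against 0.0311% on all arrays. In the F-test the otic count was 2 without the 2 arrays (2.77% of all probe sets called), 1 with array weights (2.96%) and 0 to 3 with single arrays left out: 3 without -/- replicate 2 (6.77%), and 1 without +/- replicate 1 (0.422%), +/- replicate 2 (10.6%) or -/- replicate 1 (1.06%), against 0.275% on all arrays. The sex covariate, centring, quantile normalization, the trend and the filter on dim probe sets gave 0 in all 4 tests; the filter removes Oc90, Hmx2, Hmx3 and Pax8, which have no value there. The adjusted p of Oc90 in -/- ran from 0.0174 to 0.638 (array weights), and its difference stayed below 0 throughout.

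Signs changed for small differences, and the cause was not tested. Without the 2 arrays -/- minus WT was 0.14 for Otx1, 0.30 for Otx2 and -0.43 for Eya4, 0 against 1 allele 0.0067 for Otx2 and 0.072 for Hmx2, and the Otx2 slope -0.0060. Median centring gave 0.030 for Otx2 in -/-, and 0.013 for Hmx2 and 0.0091 for Eya4 by alleles, where quantile normalization gave 0.010 for Hmx2. Array weights gave 0.060 for Hmx2 and 0.053 for Eya4 by alleles, and slopes of 0.0061 for Hmx3 and 0.040 for Pax8, which were 0.054 and 0.058 with wild-type alleles as covariate. With single arrays left out, -/- minus WT ran from -0.25 to 0.14 for Otx1, -0.34 to 0.30 for Otx2, -0.11 to 0.14 for Hmx2, -0.46 to 0.69 for Gbx2 and -0.43 to 0.48 for Eya4. By alleles the ranges were -0.089 to 0.072 for Hmx2, -0.0037 to 0.090 for Hmx3, -0.074 to 0.10 for Gbx2 and -0.068 to 0.038 for Eya4, and for slopes -0.040 to 0.019 for Hmx3 and -0.061 to 0.040 for Pax8.

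Replicate numbers did not pair the embryos: over 36 pairs of genotypes the correlation of same-numbered deviations was -0.26 to 0.19 (median 0.04), above 0.1 in 9. With the replicate block 0 otic probe sets were called, Oc90 kept -0.76 in -/- (adjusted p = 0.107 by limma), and 8 probe sets in all were called there. Pairs of embryos limit every comparison with WT, and dim probe sets have no detection call.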
